A study of Mus musculus with 6 samples.

Results

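The N-methyl-D-aspartate (NMDA) receptor subunits are encoded in the mouse by a family of 7 genes, Grin1, Grin2a to Grin2d, Grin3a and Grin3b. Members were taken by symbol from the authors' lists of genes that were lower or higher after treatment with mesenchymal stromal cells (MSCs), and 6 of the 7 genes were named there, all among the lower ones. Grin3b was not analysed here. The 6 members were joined by gene identifier to a table of 41096 genes, of which 3716 carried a symbol through those lists, under the identifiers MGP_C57BL6NJ_G0025855 (Grin1), MGP_C57BL6NJ_G0022916 (Grin2a), MGP_C57BL6NJ_G0031863 (Grin2b), MGP_C57BL6NJ_G0019769 (Grin2c), MGP_C57BL6NJ_G0032734 (Grin2d) and MGP_C57BL6NJ_G0028707 (Grin3a). Because the lists were made on the contrast described here, the direction of the 6 genes was fixed by the way they were chosen, and their values are given as a description without a test.

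The samples were left cochleae of mice exposed to a 16 kHz sound, and the RNA of 6 cochleae was sequenced. The strain is spelled C56Bl/6 in the labels and C57BL/6 in the study's methods, which give females aged 4 weeks, exposed in the left ear for 4 h. The sound trauma group held specimens 6, 8 and 10, which by the methods received 1 µl of artificial perilymph, although the labels name noise only, and the MSC treated group held specimens 13, 18 and 20, which received 1 µl of human MSCs from the Wharton's jelly of the umbilical cord. Both injections were made through the left posterior semicircular canal 48 h after the noise, and RNA was taken 2 days after treatment by the labels and 72 h after it by the methods. All animals had thus been noise exposed, no unexposed cochlea was analysed here, and the whole cochlea was the unit, so that fewer cells of a type and less RNA per cell could not be told apart. The labels give 3 specimens per group, fewer than the animals that the methods describe.

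NMDA receptors are glutamate-gated cation channels that admit calcium when glutamate and glycine or D-serine are bound and the magnesium block is relieved by depolarization. Each receptor contains the obligatory GluN1 subunit, encoded by Grin1 and binding glycine, together with GluN2 subunits, which bind glutamate and set the kinetics of the channel, or GluN3 subunits, which bind glycine and lower the calcium permeability. In the cochlea NMDA receptors are known from the afferent synapses between inner hair cells and spiral ganglion neurons, whereas Grin2c is best known from the granule cells of the cerebellum.

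To show the genomic setting of the genes on which the subunit balance turned, the 250 bases before the annotated transcription start are given for Grin1, the gene of the obligatory subunit, and for Grin2c and Grin2d, the GluN2 genes that changed places between libraries. The sequences are from RefSeq on build GRCm38.p6 and read 5′ to 3′ along the gene, all 3 of which lie on the minus strand. Of the 6 members these 3 were matched in the promoter table. Capitals mark the letters GGGCGG or CCGCCC (the GC box on either strand) and CACGTG (an E-box that reads the same on both strands). The Grin1 window lies at chr2:25319188-25319437, the Grin2c window at chr11:115267244-115267493 and the Grin2d window at chr7:45866682-45866931.
Grin1: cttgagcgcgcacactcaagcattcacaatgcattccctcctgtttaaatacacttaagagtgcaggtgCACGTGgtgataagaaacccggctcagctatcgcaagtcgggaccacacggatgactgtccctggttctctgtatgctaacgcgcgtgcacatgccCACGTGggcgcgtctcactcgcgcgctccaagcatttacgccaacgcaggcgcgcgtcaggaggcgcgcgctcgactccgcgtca
Grin2c: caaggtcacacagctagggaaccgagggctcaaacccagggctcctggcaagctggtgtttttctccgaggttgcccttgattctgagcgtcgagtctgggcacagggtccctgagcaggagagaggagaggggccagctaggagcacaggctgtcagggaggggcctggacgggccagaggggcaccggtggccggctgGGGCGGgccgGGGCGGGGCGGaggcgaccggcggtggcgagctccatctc
Grin2d: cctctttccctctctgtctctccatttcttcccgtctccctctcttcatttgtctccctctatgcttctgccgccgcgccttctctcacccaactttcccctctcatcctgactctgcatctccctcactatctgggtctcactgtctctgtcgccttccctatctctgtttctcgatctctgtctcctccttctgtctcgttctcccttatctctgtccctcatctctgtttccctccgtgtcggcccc
The windows differed in composition. The Grin2c window held 68.8% G and C with 15 CpG dinucleotides, the Grin1 window 58.8% with 27 CpG, and the Grin2d window 54.4% with 9 CpG, beside medians of 52.4% and 6 CpG over 32851 promoter windows of the same length. The GC box was found 3 times in the Grin2c window, where 2 of the matches overlap, and not in the others, and 32.7% of all windows held it. The E-box was found 2 times in the Grin1 window and not in the others, and 6.02% of all windows held it. These matches describe letters only.

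The libraries held between 9170390 and 11030863 reads on genes, and values below are read counts multiplied by 1 scaling factor per library, called scaled counts. Where 3 values of a group are listed, they stand in the order of specimens 6, 8 and 10 for sound trauma and 13, 18 and 20 for MSC treated. Of 15970 genes that passed the filter on low reads, limma found 0 at an adjusted p under 0.05, and 107 lower and 269 higher (0.67% and 1.68%) in MSC treated cochleae at an unadjusted p under 0.05. edgeR and DESeq2 likewise found 0 lower genes at an adjusted p under 0.05, and 266 and 550 lower at an unadjusted p under 0.05. Of 20 cochlear epithelium and matrix markers 6 carried a symbol, all 6 through the list of higher genes, so that the direction of their sum was fixed by the choice. These 6, among them Otof, the hair cell synaptic protein otoferlin, and Kcnq1, a potassium channel subunit of the stria vascularis, were above 3 reads in every library, their sum being lowest in specimens 6 and 8, at 1939 and 2065, and 3366 to 4856 in the other 4.

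Specimen 8, a sound trauma library, held the highest value of each of the 6 members, while in specimen 10 of the same group Grin1, Grin2b, Grin2c and Grin3a were the lowest of the 6 libraries. The highest of the 6 values fell in specimen 8 for 28.2% of the tested genes and for 69% of the genes listed as lower. In none of the 6 members did all 3 sound trauma values exceed all 3 MSC treated values, a pattern held by 2.92% of the tested genes. Reads on the 6 members together made up 146.3, 779.7 and 53.7 in the sound trauma group and 53.0, 86.6 and 67.7 per 1000000 gene reads in the MSC treated group.

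**Figure D1:**
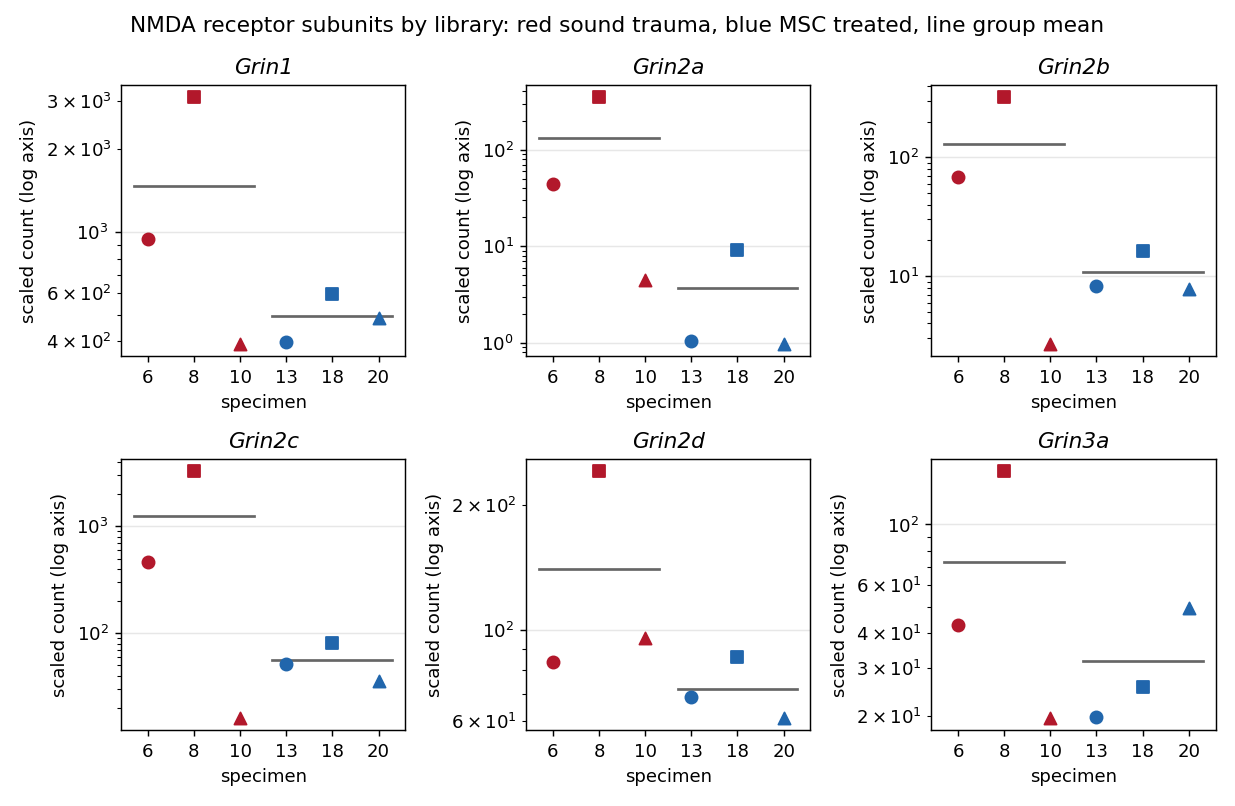
Scaled counts of the 6 NMDA receptor subunit genes in each library, with a log axis in each panel, sound trauma specimens in red, MSC treated specimens in blue and a line at each group's mean. Specimen 8 is the highest point in all 6 panels, and specimen 10 is lowest for Grin1, Grin2b, Grin2c and Grin3a.

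Grin1, the gene of the subunit that every NMDA receptor needs, stood at 944.5, 3098 and 390.4 scaled counts in the sound trauma libraries, and at 397.9, 592.4 and 487.3 in the MSC treated ones. Specimens 8 and 6 lay above all MSC treated libraries, specimen 10 lay below them, and the MSC treated range was thus held within the sound trauma range. The group means were 1478 ± 1430 and 492.5 ± 97.3 (SD, n = 3 each), and the log2 fold change, MSC treated against sound trauma on log2(scaled count + 1), was -1.10 with a standard error of 0.70. Specimen 8 was 6.29 times and specimen 6 1.92 times the MSC treated mean. Without specimen 8 the log2 fold change was -0.32, and without specimen 10 it was -1.81.

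Among the GluN2 genes, Grin2c varied the most between sound trauma libraries. Its scaled counts were 465.9, 3302 and 16.1 in the sound trauma group and 50.9, 81.7 and 35.9 in the MSC treated group. The lowest sound trauma value was below, and the other sound trauma values were far above, every MSC treated value. The means were 1261 ± 1782 against 56.2 ± 23.3 (SD, n = 3 each), the log2 fold change was -2.46 with a standard error of 1.77, and 83.5% of the scaled counts of Grin2c over the 6 libraries lay in specimen 8. Specimen 8 was 58.8 times and specimen 6 8.29 times the MSC treated mean, whereas specimen 10 was 0.286 times that mean. The log2 fold change was -0.72 without specimen 8, -2.13 without specimen 6 and -4.52 without specimen 10. These values average the libraries on the log scale, and the log2 ratio of the group means was -4.49.

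Grin2d, whose GluN2D subunit gives channels with slow deactivation, was the GluN2 gene with the least spread. It stood at 83.4, 241.9 and 95.6 scaled counts in the sound trauma group and at 68.6, 85.8 and 61.2 in the MSC treated group. Specimen 8 was again the highest, but the next highest was specimen 10, which was low for the other GluN2 genes, and specimen 6 fell inside the MSC treated range. Its log2 fold change was -0.80 with a standard error of 0.42, and -0.32 without specimen 8.

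Grin2b and Grin2a, whose subunits GluN2B and GluN2A are the main GluN2 subunits of the forebrain, gave few reads outside specimens 6 and 8. Grin2b stood at 68.4, 320.3 and 2.68 scaled counts in the sound trauma group and at 8.31, 16.3 and 7.77 in the MSC treated group, and the value of specimen 10 came from 3 reads. Grin2a stood at 44.04, 348.0 and 4.47 in the sound trauma group and at 1.04, 9.19 and 0.97 in the MSC treated group, and the lowest of these came from 1 read each. Both genes were higher in specimens 6 and 8 than in all MSC treated libraries, while specimen 10 was below all of them for Grin2b and below specimen 18 for Grin2a. The log2 fold change of Grin2b was -1.95 with a standard error of 1.53, and -0.51 without specimen 8. Grin2a was the only member that did not pass the filter on low reads. In the fit over all genes with a read, its log2 fold change was -3.68 with a standard error of 1.45, and -2.19 without specimen 8, values that depend on the added count of 1 because 2 of its libraries lay at 1 read. With 10 added in its place the log2 fold change was -2.30.

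Grin3a, the gene of the glycine-binding GluN3A subunit, stood at 42.9, 156.8 and 19.7 scaled counts in the sound trauma group and at 19.7, 25.5 and 49.5 in the MSC treated group. After specimen 8 the highest value belonged to MSC treated specimen 20, and all 3 MSC treated values lay within the sound trauma range. The log2 fold change was -0.79 with a standard error of 0.77. Without specimen 8 it was 0.01, so that the sign turned. The low values of specimens 10 and 13 were nearly equal.

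The median log2 fold change of the 6 members was -1.53, beside 0.00 over all tested genes, and it was -0.42 without specimen 8 and -2.77 without specimen 10. Fitted to the recovered reads by edgeR, the log2 fold changes were -4.50 for Grin2c, -3.59 for Grin2b, -1.59 for Grin1, -1.22 for Grin3a and -0.97 for Grin2d, and by DESeq2 they were -4.49 for Grin2c and -3.60 for Grin2b. The 5 members in the fit were all lower in the MSC treated group, as were 49.8% of the tested genes, and 0 of the 5 had a limma unadjusted p under 0.05, as against 0.67% of the tested genes in that direction. At the same limit edgeR's quasi-likelihood test called 2 of the 5, with 1.67% of the tested genes, and DESeq2 called 4 of the 5, with 3.44% of them. None of the 5 was called at an adjusted p under 0.05 by any of these tools. The members were chosen on this contrast, and nothing is drawn from these counts.

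**Figure D2:**
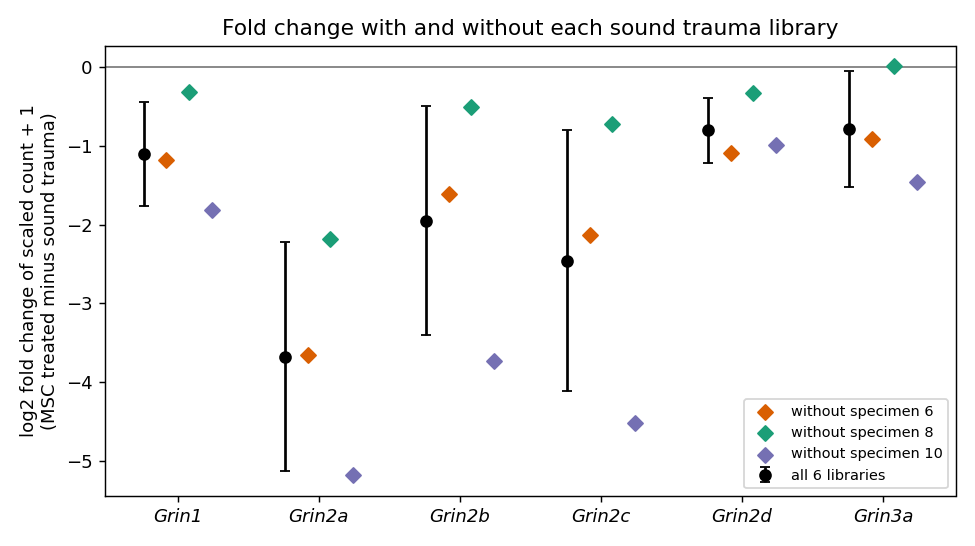
Log2 fold change of each NMDA receptor subunit gene, MSC treated minus sound trauma on log2(scaled count + 1), with all 6 libraries (black) and with 1 sound trauma library left out (coloured diamonds). Bars are the standard error of the fit over all genes with a read. The text gives those of the filtered fit, except for Grin2a, so the bars differ slightly from it. Without specimen 8 all values move toward 0 and Grin3a reaches 0.01, and without specimen 10 all values move away from 0.

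To compare levels between the subunits, scaled counts were divided by the gene length in kilobases that the authors' own FPKM values imply, which ranged from 4924 bases for Grin2c to 24445 bases for Grin2b. In the MSC treated libraries Grin1 led with 41.6 to 61.9 scaled counts per kilobase. Grin2d with 10.6 to 14.8 and Grin2c with 7.29 to 16.6 followed and overlapped each other. Grin3a had 1.64 to 4.10, Grin2b 0.318 to 0.668 and Grin2a 0.060 to 0.566, the ranges of Grin2b and Grin2a overlapping.

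In the sound trauma libraries the order was not stable. Grin1 led in specimen 6 with 98.7 scaled counts per kilobase, ahead of Grin2c with 94.6, and in specimen 10 with 40.8, ahead of Grin2d with 16.5. In specimen 8 Grin2c led with 670.7 over Grin1 with 323.5. With coding lengths of the reference annotation in place of the implied lengths, Grin1 led in all 6 libraries, so the first place in specimen 8 depended on the length used. Over the 3 libraries the range of Grin1 overlapped those of Grin2c and Grin2d, and the ranges of Grin3a, Grin2a and Grin2b overlapped each other, and Grin2d with 14.4 to 41.8 overlapped Grin2a with 0.275 to 21.4 but not Grin3a with 1.63 to 13.0 or Grin2b with 0.110 to 13.1.

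The balance within the GluN2 genes was read as each gene's share of their reads in a library, which does not depend on the scaling between libraries. Grin2c made up 70.4% of 571 GluN2 reads in specimen 6 (95% Wilson interval 66.5 to 74.0) and 78.4% of 4406 in specimen 8 (77.2 to 79.6), but 13.5% of 133 in specimen 10 (8.74 to 20.4). In the MSC treated group its share was 39.5% of 124 reads in specimen 13 (31.4 to 48.3), 42.3% of 189 in specimen 18 (35.5 to 49.5) and 33.9% of 109 in specimen 20 (25.7 to 43.2). The intervals of all 3 MSC treated libraries overlapped, and none of them overlapped the interval of any sound trauma library, with specimens 6 and 8 above and specimen 10 below. These intervals cover counting error only.

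The shares of Grin2d ran in the opposite order. The shares of a library have a fixed sum, most of it on these 2 genes, so this order is not independent of Grin2c. In scaled counts Grin2d was highest in specimen 8, where its share was lowest. It made up 80.5% of the GluN2 reads in specimen 10 (72.9 to 86.3), 12.6% in specimen 6 and 5.74% in specimen 8, against 53.2%, 44.4% and 57.8% in the MSC treated group. Grin2d was therefore the leading GluN2 gene by reads in specimen 10 and in all MSC treated libraries, and Grin2c in specimens 6 and 8, although per implied length Grin2c led in specimen 18 with 50.8% over 45.4%. Reads on Grin2c per read on Grin2d ran from 0.168 in specimen 10 to 13.7 in specimen 8, and from 0.587 to 0.952 in the MSC treated libraries. The pair that in many forebrain neurons marks a switch during development, Grin2b and Grin2a, made up 10.3% and 6.65% in specimen 6, 7.60% and 8.26% in specimen 8, and 2.26% and 3.76% in specimen 10. Both stayed under 8.5% in each MSC treated library.

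**Figure D3:**
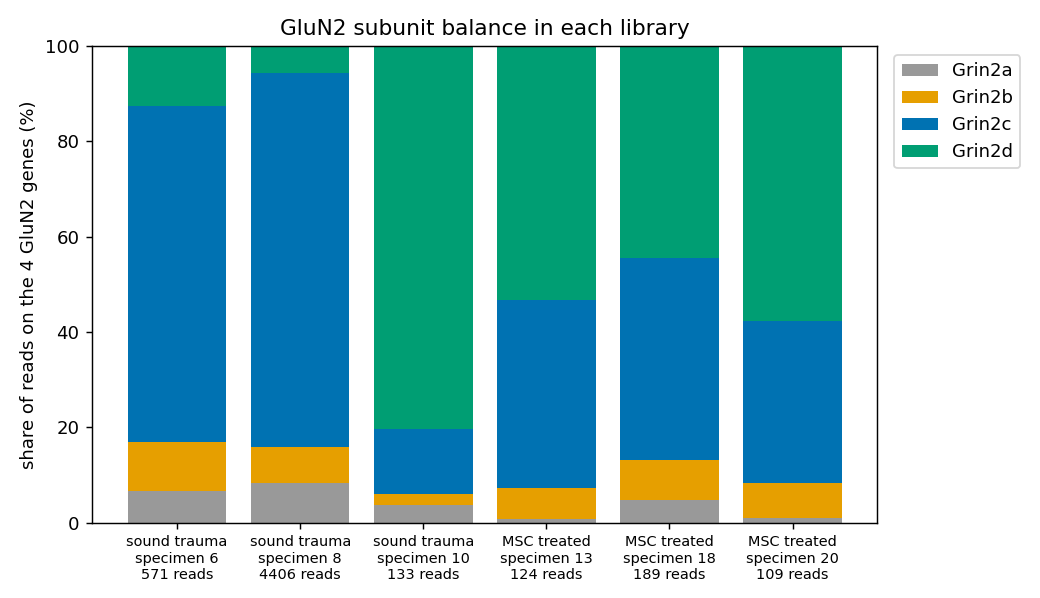
Share of the reads on the 4 GluN2 genes that each gene takes, in percent, 1 bar per library with the number of reads under it. Grin2c takes 70.4% and 78.4% in specimens 6 and 8, 13.5% in specimen 10, and between 33.9% and 42.3% in the MSC treated libraries.

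As group means the share of Grin2c was 54.1% ± 35.4 in sound trauma and 38.6% ± 4.27 in MSC treated cochleae (SD, n = 3 each), and that of Grin2d was 32.9% ± 41.3 and 51.8% ± 6.79. The differences of -15.5 and 18.9 percentage points were smaller than the SD of the sound trauma group. Leaving out specimen 8 moved the difference for Grin2c to -3.37 points, and leaving out specimen 10 moved it to -35.8 points.

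The reads on Grin1 per read on the GluN2 genes were 1.43, 0.735 and 3.29 in the sound trauma group, and 3.09, 3.07 and 4.61 in the MSC treated group. Specimens 6 and 8 were below the MSC treated range and specimen 10 was inside it. Per implied length the ratio was 0.861, 0.433 and 2.02, and 1.84, 1.89 and 2.79, with the same libraries low. The share of Grin3a in the reads on all 6 members was 2.60%, 2.10% and 3.72% in the sound trauma group and 3.61%, 3.15% and 7.70% in the MSC treated group, specimen 20 standing highest (95% Wilson interval 5.91 to 9.99).

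The genes that work beside NMDA receptors were counted in lists. Only genes with a symbol in the authors' lists could be found by name, all of them named as lower, so that their direction too was fixed by the choice, and the remaining genes of each list were not analysed here. Counts of partner genes highest in specimen 8 stand beside 69% of all genes listed as lower, and nothing is drawn from them. In the order of the paragraphs that follow, the lists had 8, 9, 13, 4, 4 and 6 genes in the fit. No gene of these lists had a limma adjusted p under 0.05. At an unadjusted p under 0.05, which 0.67% of all tested genes reached as lower, 1 was called. This was the calcium effector Camk2b, a subunit of calcium/calmodulin-dependent kinase II, and nothing is drawn from the count. Camk2b stood at 2382, 4157 and 785.3 scaled counts in the sound trauma group and at 1104, 520.9 and 583.4 in the MSC treated group, where specimen 13 exceeded specimen 10, with a log2 fold change of -1.51 and of -0.98 without specimen 8.

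The AMPA, kainate and delta receptors, the other ionotropic glutamate receptor families, had 8 of 11 genes named, and all 8 were lower in the fit and highest in specimen 8. Their median log2 fold change was -1.35, and -0.39 without specimen 8. Gria1, an AMPA receptor subunit, stood at 407.9, 2281 and 42.9 scaled counts in the sound trauma group and at 33.2, 101.1 and 65.0 in the MSC treated group, with a log2 fold change of -2.49. The AMPA receptor subunit genes Gria4 and Gria2 had log2 fold changes of -1.27 and -1.42. Grik5, a kainate receptor subunit and the most abundant of the list by reads, varied less, at 525.0, 915.9 and 431.5 against 395.8, 502.5 and 562.0, with a log2 fold change of -0.30 and of 0.02 without specimen 8. The spread between sound trauma libraries was thus unequal within this family, as it was between Grin2c and Grin2d.

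Of the postsynaptic scaffolds, which anchor NMDA receptors in the postsynaptic density, 9 of 15 genes were named, all 9 were highest in specimen 8, and the median log2 fold change was -0.75 (-0.19 without specimen 8). Dlg4, encoding PSD-95, stood at 921.3, 2405 and 489.6 scaled counts in the sound trauma group and at 547.5, 617.9 and 675.6 in the MSC treated group, so that specimen 10 was the lowest of all. Shank1 and Shank3, which link PSD-95 complexes to the actin cytoskeleton through further scaffolds, had log2 fold changes of -1.09 and -0.84, and Dlgap4, a PSD-95 binding protein, of -0.32.

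The calcium effectors, which act on the calcium that NMDA receptors admit, had 13 of 19 genes named, with a median of -0.50 and of -0.19 without specimen 8. Of the 13 genes 10 were highest in specimen 8, as were 69% of all genes listed as lower. The other 3 were highest in specimen 6, where 21.1% of the tested genes had their highest value. They were Camk2a and Camk2g, subunits of the same kinase as Camk2b, and Ppp3cb, a catalytic subunit of calcineurin. Calm2 and Calm3, which encode the calcium sensor calmodulin, had log2 fold changes of -0.14 and -0.24, and Ppp3ca, another calcineurin catalytic subunit, of -0.50.

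Of the genes for receptor traffic and tyrosine phosphorylation 4 of 11 were named, with a median of -0.80 (-0.16 without specimen 8). Of the 4 genes 3 were highest in specimen 8. Lin7a and Cdk5r1 had log2 fold changes of -1.04 and -0.91, and of -0.05 and -0.27 without specimen 8. Kif17, the motor that carries GluN2B vesicles, had a log2 fold change of -0.41 with all libraries and of 0.31 without specimen 8. Ptpn5, the tyrosine phosphatase STEP that dephosphorylates GluN2B, was highest in specimen 6 with 483.3 scaled counts against 453.2 in specimen 8.

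The co-agonist genes, which set glycine and D-serine, had 4 of 6 named and a median of -1.43 (-0.32 without specimen 8). The glycine transporter gene Slc6a9 stood at 825.2, 1682 and 1095 scaled counts in the sound trauma group and at 641.0, 1169 and 841.6 in the MSC treated group, so that sound trauma and MSC treated libraries were interleaved. Slc6a5, the neuronal glycine transporter, and Dao, D-amino acid oxidase, were high also in MSC treated specimen 18, at 82.7 and 59.2 scaled counts, while specimens 13 and 20 held at most 3.12 and 5.82. Slc7a10, the transporter Asc-1 that carries D-serine and glycine, had a log2 fold change of -1.23.

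Of the genes for glutamate release and clearance 6 of 9 were named, all 6 were highest in specimen 8, and the median was -0.90 (-0.20 without specimen 8). Slc17a7, the vesicular glutamate transporter VGLUT1, stood at 1392, 3706 and 732.6 scaled counts in the sound trauma group and at 713.7, 1348 and 683.4 in the MSC treated group. Specimen 18 nearly reached specimen 6, and specimen 10 was within the MSC treated range. The glial glutamate transporter genes Slc1a2 and Slc1a3 had log2 fold changes of -1.49 and -0.96.

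Markers of several cell types are given beside the members, and their part in the members' values was not tested. Apart from 2 spiral ganglion markers, every marker of the lists that follow was found through the list of lower genes, as the members were, so that a like direction was fixed by the choice. Of 12 cerebellar granule cell markers 10 were named, all 10 were highest in specimen 8, as were 69% of all genes listed as lower, and their summed scaled counts were 3880, 21907 and 1709 in the sound trauma group and 1806, 2358 and 1593 in the MSC treated group. Gabra6, the GABA-A receptor subunit that defines cerebellar granule cells, stood at 207.4, 1431 and 0.89 in the sound trauma libraries and at 2.08, 6.13 and 3.88 in the MSC treated ones. Cbln3, another granule cell gene, stood at 615.4, 5660 and 8.04 and at 21.8, 29.6 and 23.3. None of the 10 was at 0 in any library, and between 7 and 10 of them were above 3 reads in each.

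The 7 named of 11 pan-neuronal markers summed to 10995, 32143 and 6223 in the sound trauma group and to 6717, 9809 and 9618 in the MSC treated group. Spiral ganglion neuron markers, of which 5 of 10 were named, 3 as lower and 2 as higher, summed to 1465, 2552 and 1785 and to 1683, 1663 and 1829. The sum was highest in specimen 8, largely through Ntrk3, the neurotrophin-3 receptor, which stood at 490.2, 1216 and 335.9 and at 354.3, 475.9 and 443.6. Pou4f1, a transcription factor of sensory neurons, was lowest in specimen 8, at 102.0, 57.4 and 94.7 and at 87.3, 120.5 and 197.1, so that these markers went both ways. The 8 named of 9 Purkinje cell markers summed to 30870.2, 19589 and 11853 and to 21743, 6943 and 5777, so that specimen 6 was highest and specimen 13 exceeded specimen 8. Pvalb, the calcium-binding protein parvalbumin, made up most of the sum in every library except specimen 8. It stood at 28381, 3038 and 9645 and at 19549, 4251 and 3629, lowest in specimen 8, while the other 7 markers were highest there.

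Astrocyte markers, all 6 of them named, summed to 8814, 23358 and 3453 in the sound trauma group and to 2662, 6053 and 3036 in the MSC treated group. The sum of the oligodendrocyte markers, 6 of 7 named, was 23329, 32471 and 10072 and 9187, 22935 and 11799, so that specimen 18 stood beside specimen 6. Skeletal muscle markers, all 5 named, followed another order, at 580922, 22327 and 132455 and at 317236, 47608 and 52406, with specimen 8 the lowest. Of the forebrain excitatory neuron markers 2 of 9 were named, Neurod2 and Camk2a, and they summed to 2137, 2341 and 566.4 and to 1134.5, 265.5 and 468.9. Neurod2, a transcription factor that cerebellar granule cells also express, stood at 154.1, 996.2 and 3.57 and at 3.12, 18.4 and 8.74, while Camk2a was highest in specimen 6 and made up most of the sum. Of the Schwann cell markers 0 of 4 were named.

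**Figure D4:**
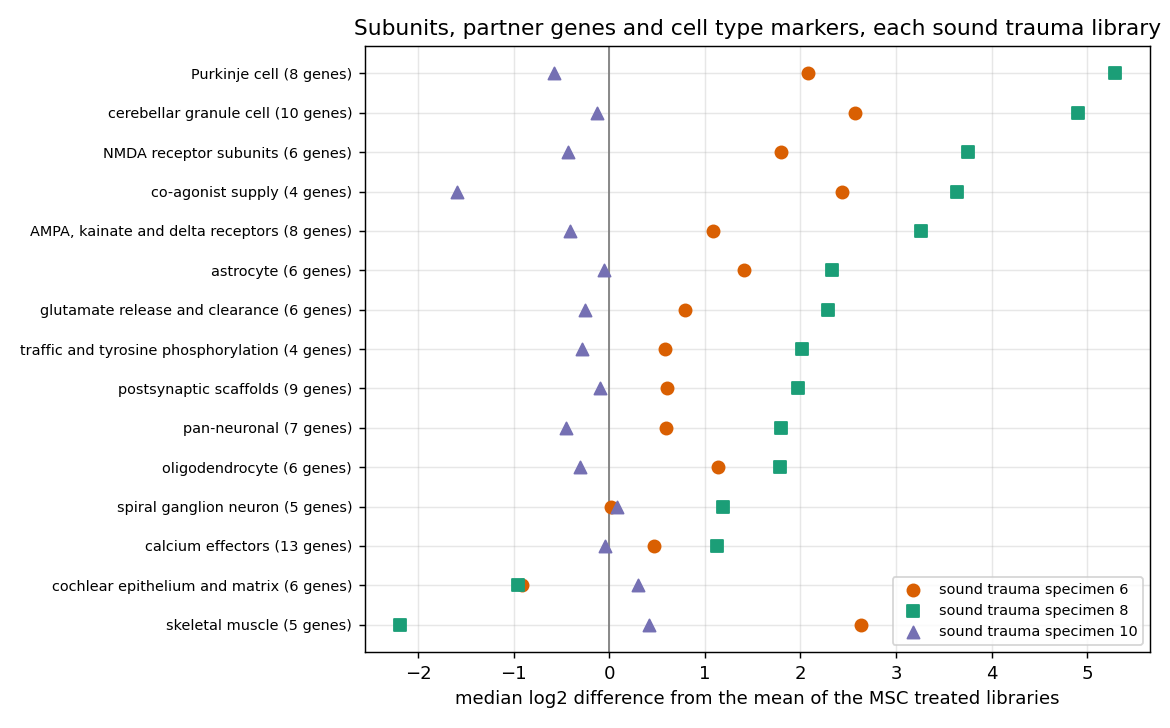
Median log2 difference of the gene lists with 4 or more named genes from the MSC treated mean, for the 3 sound trauma libraries separately, with the number of named genes in brackets. The NMDA receptor subunits lie at 3.75 in specimen 8, 1.79 in specimen 6 and -0.43 in specimen 10, in specimens 6 and 8 between the cerebellar and the pan-neuronal marker lists, while skeletal muscle markers are highest in specimen 6 and lowest in specimen 8.

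Set against the marker sums, the spread of the members depended on the list used. Per 1000 pan-neuronal scaled counts there were 85.9, 96.4 and 62.7 of Grin1 in the sound trauma group and 59.2, 60.4 and 50.7 in the MSC treated group, a range of 1.90 times over all libraries. Grin3a ranged 1.98 times and Grin2d 2.42 times, and for Grin2d specimen 10 was the highest with 15.4. Grin2c on this scale still ran from 2.58 in specimen 10 to 102.7 in specimen 8, a range of 39.8 times, Grin2b ranged 23.1 times, and Grin2a, with 1 read in 2 libraries, ranged 107.3 times. Per 1000 granule cell marker counts Grin2c stood at 120.1, 150.7 and 9.41 in the sound trauma group and at 28.2, 34.6 and 22.5 in the MSC treated group. Its spread over this sum was smaller, at 16.0 times, and the order of the libraries remained. Zic2 made up most of the sum in specimens 10, 13, 18 and 20, at 1021, 1097, 1314 and 911.5 scaled counts. The order was read from this sum and does not hold for each marker alone. Grin1 per 1000 granule cell marker counts was lowest in specimen 8, at 141.4, and highest in specimen 20, at 305.9. Set against the spiral ganglion sum Grin1 ranged 5.55 times, with specimen 8 at 4.24 times the MSC treated mean, Grin3a 5.58 times and Grin2c 143.6 times. Against the Purkinje cell sum these genes ranged 8.64, 9.44 and 124.3 times. That sum was mostly Pvalb in every library except specimen 8, so these ranges do not describe the other Purkinje cell markers.

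Among 3523 named genes past the filter, those named as most like the mean profile of the members over the 6 libraries, by Pearson's r of log2(scaled count + 1), were Gm43597, Kcnd2, Nrsn2, Sugp2, Cpe, Asrgl1, Mir124a-1hg, Scd3 and Tril, with r from 0.999 to 0.996. Kcnd2 stood at 149.5, 1026 and 14.3 scaled counts in the sound trauma group and at 16.6, 43.9 and 23.3 in the MSC treated group. Sugp2 had nearly the same r with a far smaller range, from 715.6 to 1058. Those most like Grin2c were Nova1, Usp29, Jakmip3, Trim39 and Kif1bp, with r from 0.996 to 0.993. Without specimen 8 the r of the genes named here was 0.983 to 0.999. The correlations rest on few libraries that share their scaling, and they are a description.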

How the data were processed

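RNA of 6 left cochleae was sequenced by the authors (NuGen Universal Plus libraries, NovaSeq), who trimmed, checked and aligned the reads with the AIR package to the Ensembl genome of C57BL/6NJ. The counting tool and its use of strand are not given in the sources used here. The main table deposited by the authors holds signal values, read counts multiplied by 1 TMM factor per library, and 100% of the values came out as whole reads (tolerance 1e-06 of the value). The authors' gene lists, made with NOISeq, hold group mean FPKM values, used only for the gene lengths they imply, and an FDR and log2 fold change per gene, which hold the study's own comparisons and were not used.

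Groups came from the labels. Genes were filtered with filterByExpr on the recovered reads and fitted with limma 3.58.1 (trend, log2(scaled count + 1), no covariates, Benjamini-Hochberg) in R 4.3.3. The count tests on the recovered reads, edgeR 4.0.16 and DESeq2 1.42.0, called 0 genes each as lower at an adjusted p under 0.05. The limma and edgeR fits were run on simulated reads with the same dispersion for all genes and no outlying library. Of 100 genes lowered 8-fold they recovered 100 and 99, and of 100 lowered 2-fold they recovered 14 and 15. The simulation does not hold the spread seen here for genes such as Grin2c, so it does not tell what these tests could find there. Shares of reads have 95% Wilson intervals, and 3 reads served as floor, both covering counting error only. Tables and figures were made with Python 3.11.15, pandas 2.3.3, scipy 1.17.1 and matplotlib 3.10.9.

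The named genes were all members, at most 4 genes of each partner list by most reads over all libraries, the genes most like the members or Grin2c by correlation, and marker lists as sums. Genes named beyond this rule (Camk2a, Camk2b, Camk2g, Ppp3cb, Otof, Kcnq1, Gabra6, Cbln3, Pvalb, Ntrk3, Pou4f1, Neurod2) were chosen after their values were seen. Some genes that the rule names are not reported here. The members and lists were chosen with earlier results of these data known. The labels mark the libraries as separate specimens, and p-values measure the spread between them.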

Additional observations from a re-analysis of the deposited data

How the results depend on the processing

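The number of genes at a limma adjusted p under 0.05 was 0 under each alternative that kept all libraries and 0 to 1 when a library was left out, the 1 without specimen 10. Lower genes at an unadjusted p under 0.05, 107 with the settings of the report, were 299 with no filter beyond 1 read, 61 with scaling to total reads, 266 with edgeR and 550 with DESeq2, and 55 to 1147 with a library left out, the most without specimen 10. Higher genes, 269 in the report, were 427 with no filter beyond 1 read and 108 to 1397 with a library left out. The median log2 fold change of the members stayed negative throughout, from -0.42 without specimen 8 to -2.77 without specimen 10, and the log2 fold change of Grin3a alone changed sign, running from -1.46 without specimen 10 to 0.0088 without specimen 8. The difference in the Grin2c share ran from -3.37 to -35.8 percentage points with a library left out, and the log2 ratio of Grin1 to GluN2 reads, 1.22 higher in MSC treated cochleae, from 0.70 to 1.78. The cause of these shifts was not tested. No paired analysis was possible because the groups share no specimen numbers. Depth limits Grin2a and Grin2b, with 1 to 16 reads in each MSC treated library.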

Other observations

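Specimens 6 and 8 both exceeded the MSC treated mean for each of the 6 NMDA receptor subunit genes, by unequal amounts. The excess of specimen 6 over that mean was 17.4% of the excess of specimen 8 for Grin1, 12.6% for Grin2c, 18.6% for Grin2b and 11.7% for Grin2a, and it was 6.82% for Grin2d and 9.02% for Grin3a. Among the 10 named cerebellar granule cell markers the same quantity ran from -12.0% for Zic2, for which specimen 6 was below the MSC treated mean, to 47.9% for Barhl1. It was 3.75% for Fat2, 10.5% for Cbln3, 12.1% for Zic1, 12.2% for En2, 13.3% for Cbln1, 14.0% for Zic4, 14.3% for Gabra6 and 17.4% for Pax6. On list sums it was 14.4% for the members, 9.81% for granule cell and 9.73% for pan-neuronal markers. It was 13.6% for AMPA, kainate and delta receptors, 14.2% for glutamate release and clearance and 15.4% for scaffolds. The other partner lists and the astrocyte markers lay between 21.6% and 29.9%, and the oligodendrocyte markers at 48.7%. The range was thus not particular to granule cell markers.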
